A study of Mus musculus with 12 samples.

Results

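The nuclear genes of respiratory complex I were examined in the CA1 field of the mouse hippocampus, a region needed for memory formation, after myocardial infarction (MI). All protein-coding mouse genes whose symbol begins with Nduf and whose mean was at least 10 counts over the 12 libraries were taken, which gave 46 of the 48709 gene identifiers in the count files. All 46 annotated protein-coding Nduf symbols that the files hold passed this minimum. They comprised 7 core subunits of the peripheral arm, 9 supernumerary subunits of that arm, 20 supernumerary subunits of the membrane arm, 8 Ndufaf assembly factors, and the pair Ndufa4 and Ndufa4l2.

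Complex I oxidises NADH, passes the electrons through a flavin and a chain of iron-sulphur clusters to ubiquinone, and pumps protons across the inner mitochondrial membrane. Its peripheral arm reaches into the matrix and holds the redox centres. The membrane arm holds the proton pumps, whose core subunits are encoded by mitochondrial DNA, while supernumerary subunits from nuclear genes surround both arms. Assembly factors help to build the complex and are not part of the finished enzyme. Neurons rely heavily on oxidative phosphorylation, and inherited defects in many Nduf genes cause encephalopathy.

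The libraries were polyA RNA-seq of microdissected CA1, 6 labelled MI, from mice with a ligated coronary artery, and 6 labelled Sham, from mice given the same kind of operation without ligation. No agent, transgene or engineered allele is named for either group. The labels give no strain, sex or age and no interval between surgery and dissection. They also do not say whether every library came from its own mouse, so each p-value refers to spread among libraries, which may be technical. Library totals ran from 20764133 to 35643127 counts. Levels are given as CPM, counts scaled to a common library size by the TMM method, and means are ± SD with 6 libraries per group.

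All 7 markers of CA1 pyramidal neurons were present in every library, with a summed level from 696 to 1822 CPM. Libraries differed in ways that the 2 labels do not describe. In MI 1, 3 and 4 and Sham 1, 2 and 3 the Y-linked counts exceeded those of Xist, and in the other 6 libraries Xist exceeded the Y-linked counts. Sham 6 stood apart in the dentate granule cell markers, at 694 summed CPM against 31.9 to 254 in the other 11 libraries. In tissue samples of this kind, fewer cells of a type and less RNA per cell cannot be told apart.

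Levels were compared between genes per kilobase of transcript. Per kilobase of the principal transcript, the 36 subunits had a median level of 60.3 CPM per kb over the 12 libraries, with medians of 59.9 for the peripheral core, 57.1 for the peripheral supernumerary and 65.2 for the membrane arm subunits. The 8 assembly factors had a median of 14.1 CPM per kb. Among the core subunits the lowest was Ndufs3 at 38.9 CPM per kb. In the peripheral supernumerary class the levels ran from 24.6 CPM per kb for Ndufa12 to 88.6 for Ndufa6. The membrane arm class had the widest range, from 4.15 CPM per kb for Ndufb4 to 181 for Ndufb9. Assembly factors ran from 4.94 CPM per kb for Ndufaf6 to 21.0 for Ndufaf5, which modifies an arginine of Ndufs7. Ndufa4, now assigned to cytochrome c oxidase (complex IV), had 244 CPM per kb, and its paralog Ndufa4l2 had 2.03.

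Some of the low values carry a measurable limit. The principal transcripts of Ndufb2 and Ndufab1 are annotated at 4371 and 3479 bases, and both genes lay at 6.26 and 5.95 CPM per kb. Of the 50-base words in the Ndufb4 transcript, as long as the reads, 37.0% also occur in another annotated transcript, and the share is 39.7% for Ndufs3, 34.1% for Ndufb6 and 31.1% for Ndufs5. Over 20% of words were shared for 7 of the 46 genes and none for 24, so levels of those 7 are uncertain where reads with several matches were dropped or split. Exons of 19 genes overlap another gene, the most being 65.6% of Ndufaf2 with B230220B15Rik on the opposite strand, and the labels do not say whether reads were counted by strand.

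**Figure D1:**
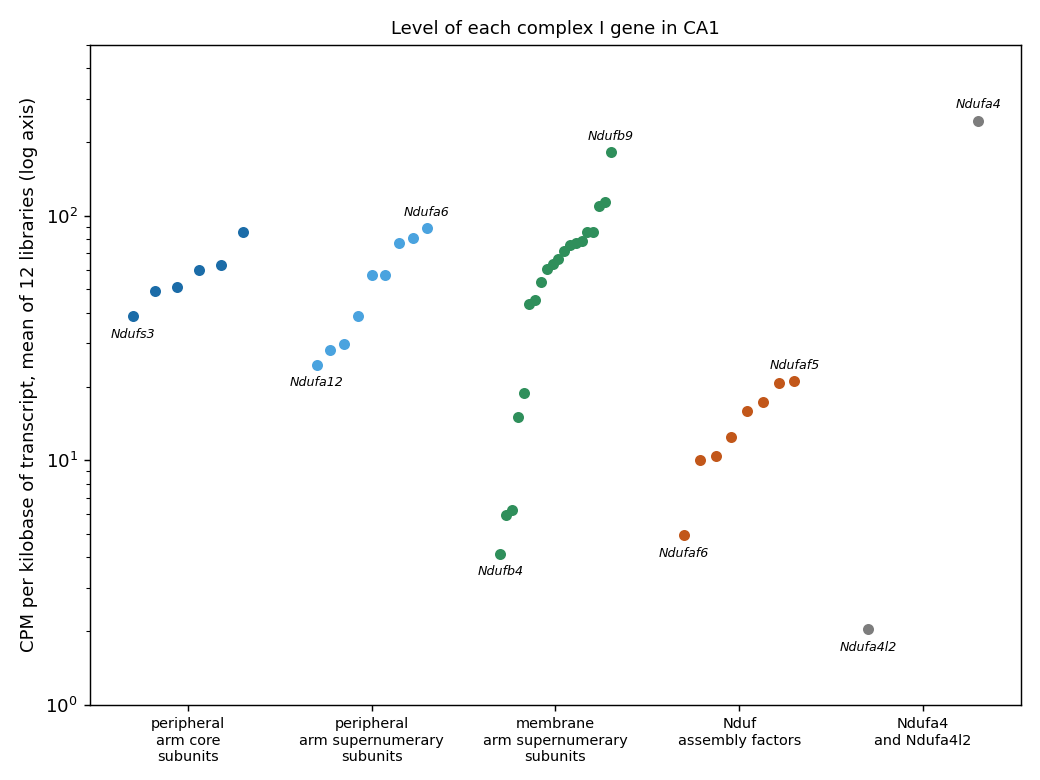
Each point is the level of one of 45 complex I genes, in CPM per kilobase of its principal transcript averaged over 12 libraries, on a log axis and arranged by class. Most subunits lie near the class medians of 57.1 to 65.2, all 8 assembly factors lie at or below 21.0, and Ndufa4 at 244 and Ndufa4l2 at 2.03 mark the extremes.

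Promoter sequence was read for 40 of the 46 genes from RefSeq windows on GRCm38.p6, using the 250 bases before the start. The binding word of NRF1, a factor known to activate respiratory genes, was searched on both strands as GCGCA, any base, then GCGC. It occurred in the windows of 7 of the 40 genes (17.5%) and of 4.23% of 27025 genes with a RefSeq promoter, which were not matched for expression or GC content. The 9 matches in these 7 genes are shown with 10 bases on either side, the match in capitals, to let the element be seen.
Ndufa11: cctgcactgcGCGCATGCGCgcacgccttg
Ndufa5: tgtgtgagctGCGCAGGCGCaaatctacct
Ndufa8: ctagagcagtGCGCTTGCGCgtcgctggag
Ndufaf4: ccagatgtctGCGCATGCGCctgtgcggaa
Ndufb4: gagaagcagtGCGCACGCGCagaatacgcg
Ndufb4: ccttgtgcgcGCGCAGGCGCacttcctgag
Ndufb4: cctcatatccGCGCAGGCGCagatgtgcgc
Ndufs5: gctgcttgctGCGCAGGCGCagacccgctg
Ndufs6: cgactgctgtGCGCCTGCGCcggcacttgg
Starts here are those of RefSeq, and a second Ndufa5 start lay 26 bases from the same match. By the GENCODE gene coordinates, the matches of Ndufa5, Ndufa8 and Ndufs6 lay inside the annotated gene. So did the Ndufb4 matches at 79 and 22 bases before the RefSeq start. The windows of Ndufa11, Ndufa8 and Ndufs6 also held exon bases of another gene, Vmac, Morn5 and Mrpl36 respectively. The distance from the start to the first base of the match was 60 bases in Ndufa11, 190 in Ndufa5 and 30 in Ndufa8. It was 113 in Ndufaf4 and 98 in Ndufs5, and ran from 16 bases in Ndufs6 to 191 in Ndufb4, which held 3 matches. Their positions on GRCm38 are chr17:56717692-56717721 (plus strand, Ndufa11), chr6:24527697-24527726 (minus strand, Ndufa5), chr2:36049349-36049378 (minus strand, Ndufa8), chr4:24897960-24897989 (plus strand, Ndufaf4), chr16:37654540-37654569 (minus strand, Ndufb4), chr16:37654428-37654457 (minus strand, Ndufb4), chr16:37654371-37654400 (minus strand, Ndufb4), chr4:123718265-123718294 (minus strand, Ndufs5) and chr13:73328479-73328508 (minus strand, Ndufs6).

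Other words searched were CCGGAAGT of the ETS factors, AAGATGGC of YY1 and TCAAGGTCA of the estrogen-related receptors, which were found for none of the 40 genes and for 3.23%, 1.83% and 0.422% of all genes. The TATA word TATAAA was found for 4 genes (10%) against 14.3% of all, and the Sp1 word GGGCGG for 19 (47.5%) against 35.4%. A gene counted once for a word whatever the strand, the number of its windows or matches, or any overlap with another word. The 250-base windows of Ndufa3, Ndufb8 and Ndufv2 are shown because these genes are described in detail in the comparison and their windows hold no annotated exon base. Capitals mark TATA and Sp1 words on either strand.
Ndufa3: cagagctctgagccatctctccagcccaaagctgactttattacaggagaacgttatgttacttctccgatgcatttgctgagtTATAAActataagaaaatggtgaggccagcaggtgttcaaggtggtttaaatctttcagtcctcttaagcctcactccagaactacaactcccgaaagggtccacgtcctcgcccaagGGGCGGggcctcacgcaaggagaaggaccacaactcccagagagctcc
Ndufb8: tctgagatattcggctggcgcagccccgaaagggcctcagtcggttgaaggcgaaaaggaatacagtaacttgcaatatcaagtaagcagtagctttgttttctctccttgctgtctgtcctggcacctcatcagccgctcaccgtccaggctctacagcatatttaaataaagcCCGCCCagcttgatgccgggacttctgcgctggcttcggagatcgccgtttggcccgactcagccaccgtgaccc
Ndufv2: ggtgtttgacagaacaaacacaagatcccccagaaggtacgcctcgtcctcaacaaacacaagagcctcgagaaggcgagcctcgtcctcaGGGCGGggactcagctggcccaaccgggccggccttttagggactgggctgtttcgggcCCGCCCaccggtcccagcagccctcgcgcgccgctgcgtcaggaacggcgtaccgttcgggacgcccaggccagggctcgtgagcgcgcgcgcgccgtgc
These lie at chr7:3617123-3617372 (plus strand, Ndufa3), chr19:44555443-44555692 (minus strand, Ndufb8) and chr17:66101560-66101809 (minus strand, Ndufv2). The Ndufa3 window holds 1 TATA word and 1 Sp1 word, the Ndufb8 window 1 Sp1 word, and the Ndufv2 window 2 Sp1 words. Words were counted anywhere in the 250 bases, whatever their distance from the start, so a TATA word here does not define a TATA promoter. A match of letters is a description and no binding was measured here.

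The comparison of MI with Sham asked whether hippocampal expression differs after cardiac injury. Of the 46 complex I genes, 43 had a positive log2 fold change (MI minus Sham), against 47.6% of the 16829 genes tested. None passed an adjusted p of 0.05 in the edgeR quasi-likelihood test with Benjamini-Hochberg adjustment over all genes, and none of all genes did (0%), the smallest adjusted p being 0.597. At an unadjusted p under 0.05, 16 complex I genes were higher and 0 lower, against 3.95% and 3.59% of all genes. That count of 16 was 9 without MI 3, 10 without MI 1, MI 4 or Sham 6, and 18 without MI 5. The share of all genes in those fits was not computed. DESeq2 called 10 genes higher (0.072%) and 6 lower (0.0432%) of 13886 with an adjusted p, with no complex I gene among them, the smallest adjusted p of a complex I gene being 0.0652. The differences were small: the median log2 fold change was 0.12 over the 36 subunits and 0.06 over the 8 assembly factors, against -0.01 over all genes. Summed over the subunits, the level was 2250 ± 112 CPM in MI and 2087 ± 101 in Sham, or 7.84% higher, and summed over the assembly factors it was 167 ± 5.57 and 161 ± 7.59 CPM, or 3.60% higher.

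**Figure D2:**
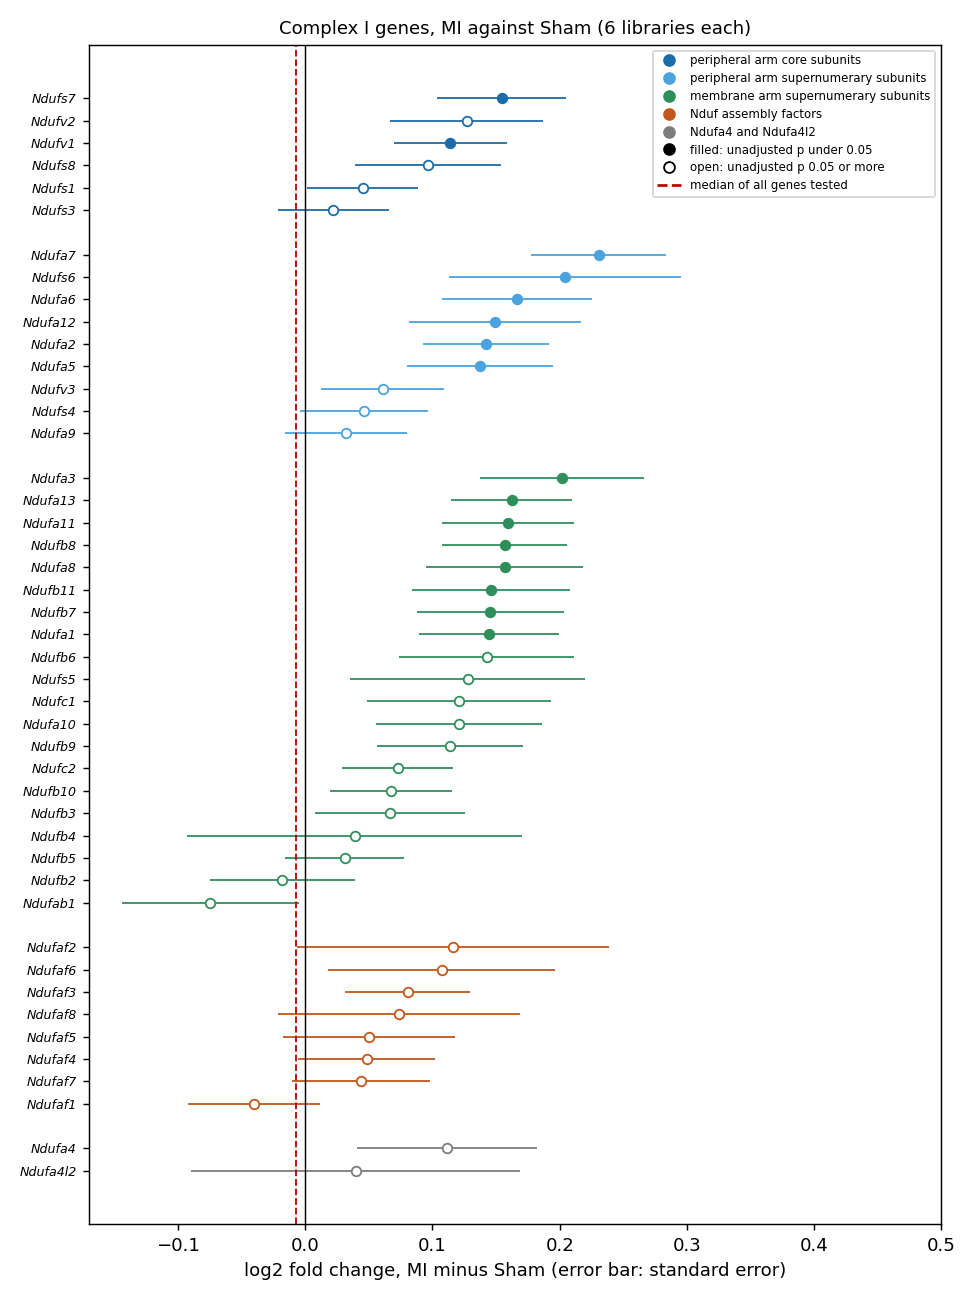
Log2 fold change (MI minus Sham, x axis) with its standard error for 45 of the 46 genes, grouped by class. The 16 filled points have an unadjusted p under 0.05 and are all subunits (9 to 18 genes pass with 1 library left out), and 3 genes, Ndufab1, Ndufb2 and Ndufaf1, lie below 0.

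All 7 core subunits of the peripheral arm had a positive log2 fold change, with a median of 0.10 and a range from 0.02 for Ndufs3 to 0.15 for Ndufs7. In 2 of the 7 the unadjusted p was under 0.05, where 3.95% of all genes were higher at that p. Ndufs7 (chr10:80249121-80256794), which carries the last iron-sulphur cluster before ubiquinone, ranged from 57.5 to 68.1 CPM in MI with a median of 60.6, and from 54.0 to 59.0 in Sham with a median of 55.5. Only Sham 2 exceeded the lowest MI library, and MI 1, 3 and 4 lay above every Sham library. Its log2 fold change was 0.15 (SE 0.05, unadjusted p = 0.00888, adjusted p = 0.597).

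Ndufv1 (chr19:4007384-4012806) binds the flavin and is where NADH is oxidised. It ranged from 137 to 157 CPM in MI with a median of 148, and from 131 to 141 in Sham with a median of 137. Of the MI libraries, 4 lay above every Sham library, and MI 2 and MI 5 fell within the Sham range. The log2 fold change was 0.11 (SE 0.04, unadjusted p = 0.0229, adjusted p = 0.614). Ndufv2 (chr17:66078638-66101559), its iron-sulphur partner whose promoter window is shown above, ranged from 106 to 120 CPM in MI (median 110.7) and from 84.8 to 109.5 in Sham (median 105.4). Sham 6 was the lowest library by a wide gap, and without it the log2 fold change was 0.08 in place of 0.13.

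The 9 supernumerary subunits of the peripheral arm all had a positive log2 fold change, with a median of 0.14. At an unadjusted p under 0.05, 6 of the 9 were higher, against 3.95% of all genes. Ndufa7 (chr17:33824572-33838317), a small accessory subunit of this arm, was the one complex I gene in which the groups did not overlap, a separation that 0.25% of all genes showed with MI higher and 0.16% with MI lower. It ranged from 40.8 to 47.8 CPM in MI (median 43.9) and from 36.1 to 39.2 in Sham (median 37.7). Within MI the libraries formed an upper trio, MI 1, 3 and 4 at 46.6 CPM or more, and a lower trio, MI 2, 5 and 6 at 41.3 CPM or less. The means were 44.2 ± 3.51 and 37.7 ± 1.30 CPM, and the log2 fold change was 0.23 (SE 0.05, unadjusted p = 0.000733, adjusted p = 0.597). With any single library left out its log2 fold change stayed between 0.21 and 0.25.

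Ndufa2 (chr18:36742332-36744557), which has a thioredoxin-like fold, ranged from 46.5 to 51.1 CPM in MI (median 48.5) and from 40.7 to 48.8 in Sham (median 44.3). Sham 2 was the one Sham library above the lowest MI library. The log2 fold change was 0.14 (SE 0.05, unadjusted p = 0.0125, adjusted p = 0.597). Ndufa6 (chr15:82350140-82354322), an LYR-motif subunit that docks the acyl carrier protein Ndufab1 onto the complex, ranged from 51.9 to 58.9 CPM in MI (median 55.2) and from 41.6 to 53.3 in Sham (median 50.1). Sham 2 and Sham 4 lay inside the MI range, and Sham 6 was lowest. Its log2 fold change was 0.17 (SE 0.06, unadjusted p = 0.0140, adjusted p = 0.597), and 0.12 without Sham 6.

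Of the 20 supernumerary subunits of the membrane arm, 18 had a positive log2 fold change, with a median of 0.12. At an unadjusted p under 0.05, 8 were higher, against 3.95% of all genes. Ndufa13 (chr8:69894180-69902558), also known as GRIM-19, ranged from 74.4 to 85.3 CPM in MI (median 80.2) and from 67.9 to 75.7 in Sham (median 71.5). Sham 2 was the one Sham library inside the MI range, and MI 1, 3 and 4 lay above 83 CPM. The log2 fold change was 0.16 (SE 0.05, unadjusted p = 0.00446, adjusted p = 0.597). Its exons overlap Tssk6 on the opposite strand over 30.0% of their length, and 28.5% of its read-length words are shared with other transcripts.

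Ndufb8 (chr19:44548572-44555440), a single-pass membrane subunit, ranged from 57.1 to 64.6 CPM in MI (median 62.1) and from 50.4 to 58.2 in Sham (median 55.7). MI 5 and MI 6 fell within the Sham range and the other 4 MI libraries lay above it. The log2 fold change was 0.16 (SE 0.05, unadjusted p = 0.00673, adjusted p = 0.597). Ndufa3 (chr7:3617373-3620327), another small single-pass subunit, ranged from 54.3 to 66.8 CPM in MI (median 61.2) and from 45.9 to 55.8 in Sham (median 54.1). Again MI 5 and MI 6 overlapped Sham while MI 1, 2, 3 and 4 did not, and the log2 fold change was 0.20 (SE 0.06, unadjusted p = 0.00776, adjusted p = 0.597).

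**Figure D3:**
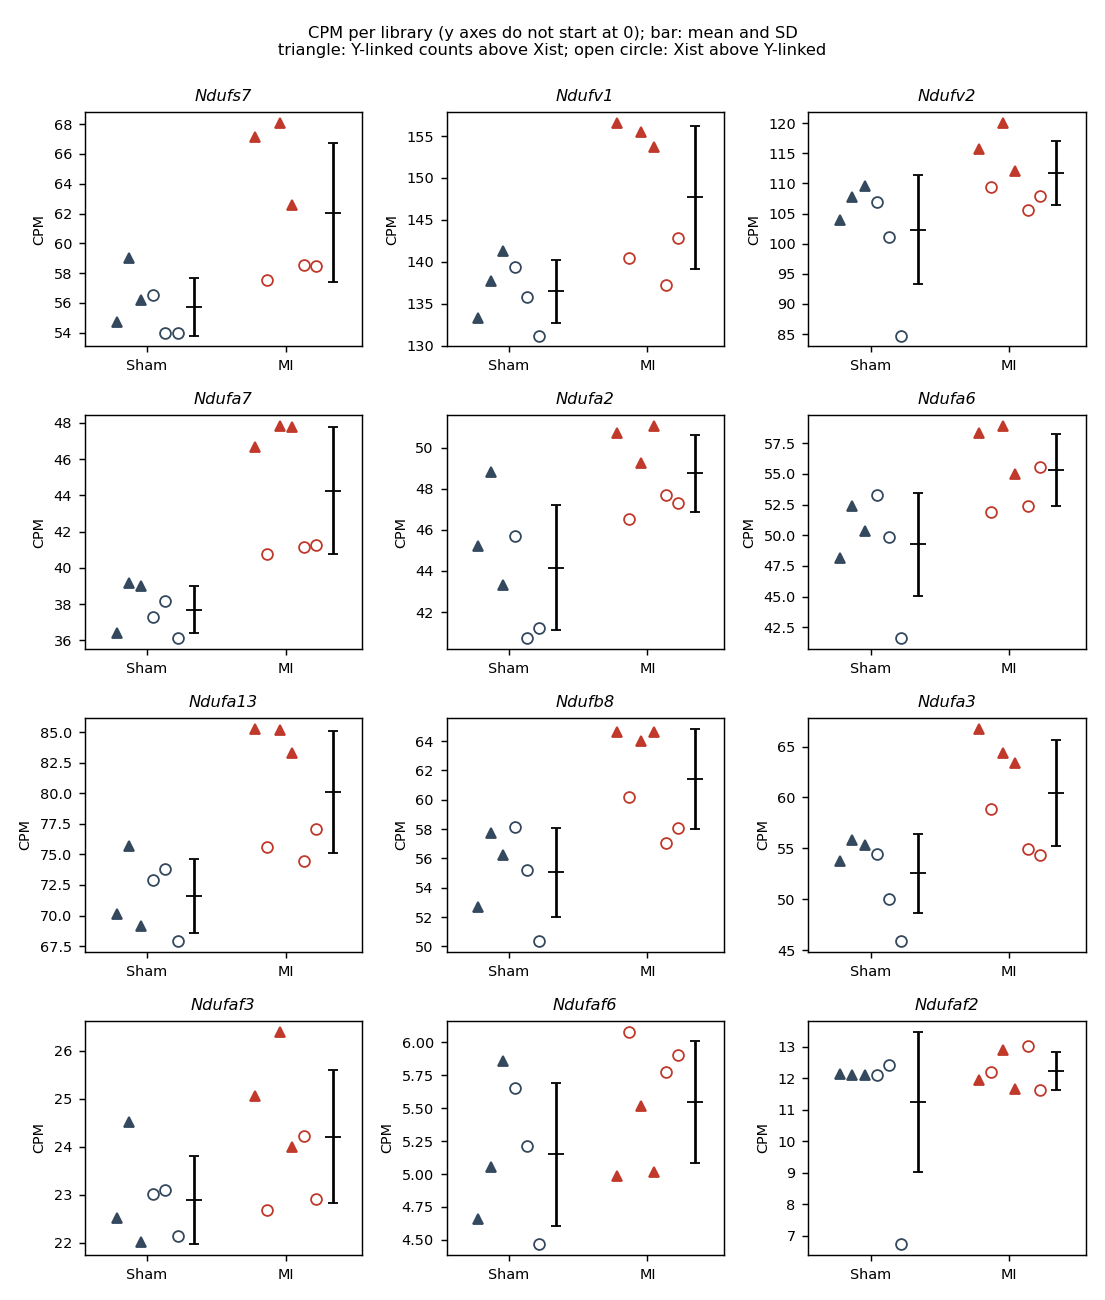
CPM in each library for the 3 genes of each class with the smallest unadjusted p, with the mean and SD of each group. Triangles are libraries with Y-linked counts above Xist. Only in Ndufa7 do the groups separate, from 36.1 to 39.2 CPM in Sham and from 40.8 to 47.8 in MI, and in Ndufaf2 Sham 6 lies alone at 6.72 CPM.

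Both subunits with a negative value were listed under the membrane arm, although Ndufab1 is also docked by Ndufa6 of the peripheral arm. Ndufab1, the mitochondrial acyl carrier protein, which fatty acid synthesis also uses, averaged 20.2 ± 1.15 CPM in MI and 21.3 ± 2.29 in Sham (log2 fold change -0.07, SE 0.07, adjusted p = 0.845). Ndufb2 had 27.2 ± 1.19 and 27.5 ± 2.27 CPM (log2 fold change -0.02, SE 0.06, adjusted p = 0.968). In both genes Sham 1 was the highest of the 12 libraries, and the groups overlapped throughout.

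None of the 8 assembly factors had an unadjusted p under 0.05, and 7 of the 8 had a positive log2 fold change. Ndufaf3 (chr9:108565537-108567434), an early factor of the ubiquinone module, ranged from 22.7 to 26.4 CPM in MI (median 24.1) and from 22.0 to 24.5 in Sham (median 22.8). The groups overlapped, with MI 1 and MI 3 above every Sham library, and the log2 fold change was 0.08 (SE 0.05, unadjusted p = 0.124, adjusted p = 0.737). Ndufaf6 (chr4:11051045-11076205) ranged from 4.98 to 6.08 CPM in MI (median 5.64) and from 4.47 to 5.86 in Sham (median 5.13), for a log2 fold change of 0.11 (SE 0.09, adjusted p = 0.817), or 0.07 without Sham 6. Ndufaf2 (chr13:108002715-108158623), a late chaperone and paralog of Ndufa12, ranged from 11.6 to 13.0 CPM in MI. In Sham, 5 libraries lay between 12.1 and 12.4 CPM and Sham 6 at 6.72. Its log2 fold change of 0.12 (SE 0.12, adjusted p = 0.874) was 0.0046 without Sham 6. Ndufaf1, which forms an assembly complex with Ecsit, Acad9 and Tmem126b, had the one negative value of the class, at 17.8 ± 0.589 CPM in MI and 18.3 ± 1.21 in Sham (log2 fold change -0.04, SE 0.05, adjusted p = 0.901).

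Ndufa4 (chr6:11900292-11907497) ranged from 142 to 165 CPM in MI (median 155) and from 119.7 to 161 in Sham (median 145). MI 1, 3 and 4 were above every Sham library and the other 3 MI libraries lay within the Sham range. Its log2 fold change was 0.11 (SE 0.07, adjusted p = 0.747), and 0.06 without Sham 6, the lowest library. Ndufa4l2 (chr10:127514967-127517154), known as a hypoxia-inducible gene, ranged from 1.49 to 2.27 CPM in MI (median 1.93) and from 1.66 to 2.18 in Sham (median 1.77). The log2 fold change was 0.04 (SE 0.13, adjusted p = 0.968), and both the lowest and the highest library were MI.

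The authors' deposited table of higher genes listed 12 of the 46 complex I genes, and their table of lower genes listed 0. Over all genes tested here, 3.13% were in the first table and 2.97% in the second. The listed genes were Ndufs7 and Ndufv2 of the core, Ndufa7, Ndufa2, Ndufa6 and Ndufs6 of the peripheral supernumerary class, and Ndufa13, Ndufb8, Ndufa3, Ndufa8, Ndufb7 and Ndufa11 of the membrane arm. In the authors' deposited table the log2 fold changes of these 12 ran from 0.09 for Ndufv2 to 0.16 for Ndufa7, whose adjusted p there was 0.00649. The largest adjusted p of the 12 in the authors' deposited table was 0.0400, for Ndufa11. These come from the same libraries, and the labels do not name the test behind them. In the edgeR fit Ndufs6, a zinc-binding subunit, had 23.6 ± 2.0 CPM in MI and 20.5 ± 2.79 in Sham (log2 fold change 0.20, SE 0.09, adjusted p = 0.645). Sham 6 was at 15.1 CPM and the other Sham libraries at 19.8 to 22.7, and without Sham 6 the log2 fold change was 0.13 and the unadjusted p 0.0644 in place of 0.0429. The intermembrane-space subunits Ndufa8 and Ndufb7 had log2 fold changes of 0.16 and 0.15 and Ndufa11 one of 0.16, with adjusted p of 0.614, 0.614 and 0.597.

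The level of the 46 genes also varied between libraries of one group. MI 1, 3 and 4 had 39, 44 and 36 of the 46 genes above the gene's own median over the 12 libraries, whereas MI 2, 5 and 6 had 19, 23 and 21. In Sham the counts were 11, 28, 14, 26, 10 and 5 for libraries 1 to 6. MI 3 was the highest of all libraries for 21 genes and Sham 6 the lowest for 33. The same counts were not made over all genes, so they are not shown to be particular to complex I genes. Averaged over the subunits, the deviation from each gene's mean log2 CPM was 0.12, 0.14 and 0.11 in MI 1, 3 and 4, and -0.02, -0.01 and -0.01 in MI 2, 5 and 6. It was -0.06, 0.01, -0.04, 0.01, -0.06 and -0.19 in Sham 1 to 6. Thus MI 2, 5 and 6 lay within the Sham range, and the assembly factors in MI 4 were at -0.01 where its subunits were at 0.11.

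**Figure D4:**
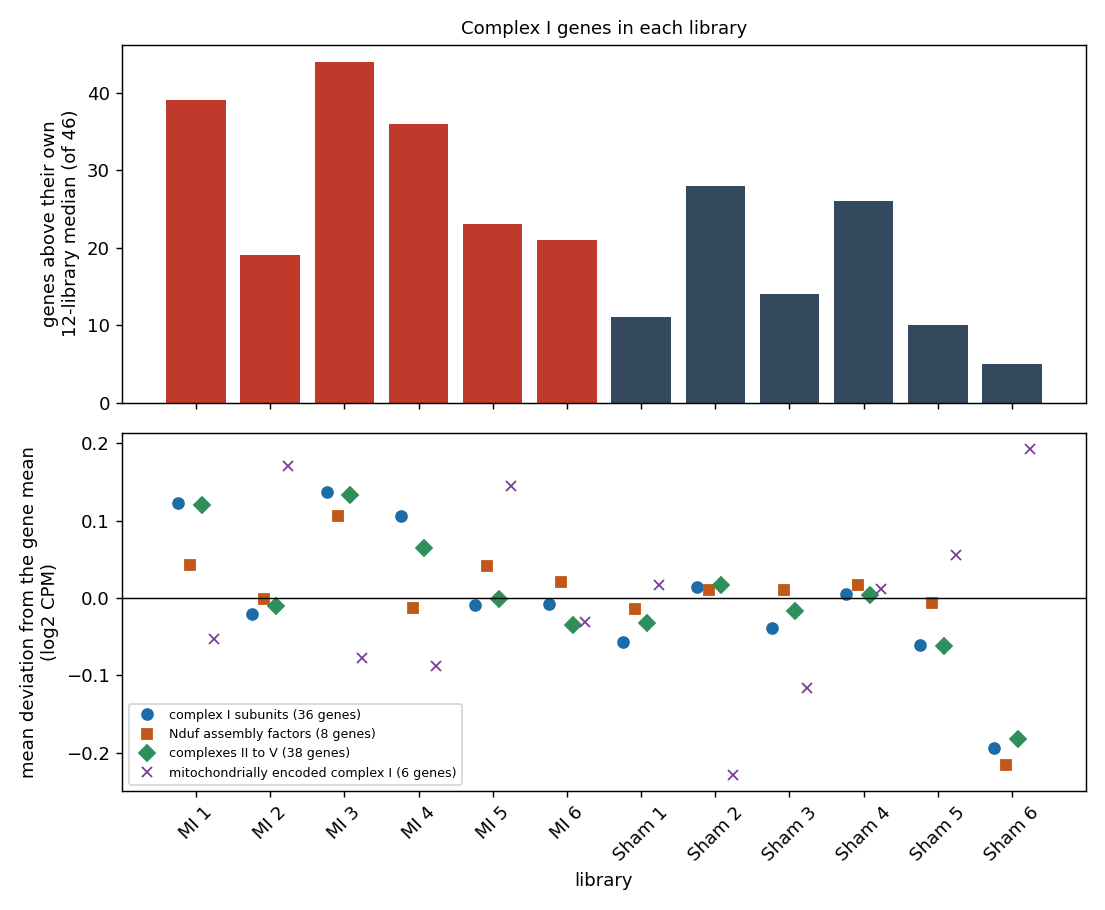
Upper panel, number of the 46 complex I genes above their own 12-library median in each library. Lower panel, mean deviation in log2 CPM of complex I subunits, assembly factors, subunits of complexes II to V and mitochondrially encoded complex I subunits. MI 1, 3 and 4 have the largest counts (39, 44 and 36) and Sham 6 the smallest (5).

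The 2 sets of libraries, split by Y-linked counts and Xist, were also fitted separately. MI 1, 3 and 4 are the MI libraries of one set, so the values within sets describe again the libraries already seen to be high and are no separate evidence. In the set with Y-linked counts (MI 1, 3 and 4 against Sham 1, 2 and 3), 40 of the 46 genes had a positive log2 fold change, with a median of 0.15 over subunits and 0.02 over assembly factors. The groups did not overlap, with MI higher, for 24 of the 46, against 10.9% of all genes, and 17 had an unadjusted p under 0.05 and were higher, against 7.59%. Ndufa7 alone passed an adjusted p of 0.05 in that set (0.602% of all genes did so with MI higher), with a log2 fold change of 0.31 and an adjusted p of 0.0495. Over all the alternatives tried, its adjusted p ranged from 0.0495 to 0.999.

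In the set with Xist (MI 2, 5 and 6 against Sham 4, 5 and 6), 40 of the 46 genes were also positive, with a median of 0.07 over subunits and 0.04 over assembly factors. There 6 genes had groups that did not overlap, against 2.88% of all genes, 1 had an unadjusted p under 0.05, against 0.784%, and none passed an adjusted p of 0.05. The difference between the sets was tested as an interaction in edgeR. None of the 46 genes passed an adjusted p of 0.05, while 2 of all genes did (0.0119%). At an unadjusted p under 0.05 there were 3 of the 46, a smaller share than the 8.24% of all genes. These 3 were Ndufa7 (interaction 0.17 on the log2 scale, SE 0.07, unadjusted p = 0.0323), Ndufs3 (0.16, SE 0.07, unadjusted p = 0.0485) and Ndufb11 (0.24, SE 0.11, unadjusted p = 0.0436), the last named after its value was seen. The interaction was positive, meaning a larger value in the set with Y-linked counts, for 34 of the 46 genes, against 50.8% of all genes.

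**Figure D5:**
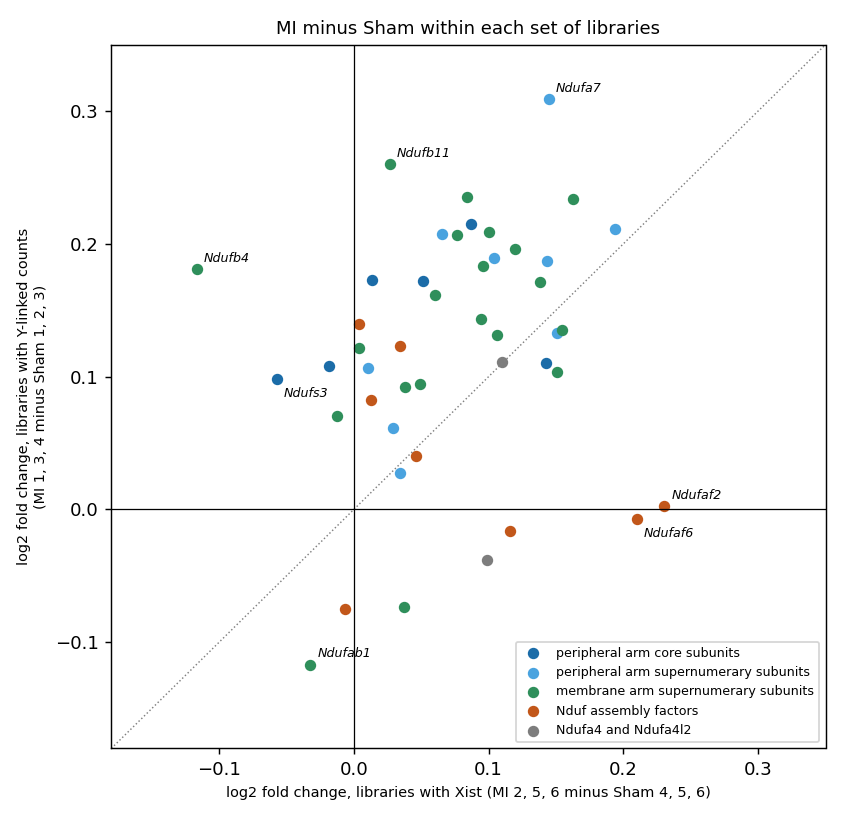
Each point is one of 45 complex I genes, with its log2 fold change (MI minus Sham) in the 6 libraries with Xist on the x axis and in the 6 libraries with Y-linked counts on the y axis. Most subunits lie above the dotted line of equal values, Ndufa7 at 0.14 and 0.31, whereas Ndufaf2 and Ndufaf6 lie below it at 0.23 and 0.21 on the x axis and near 0 on the y axis.

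Other genes of the respiratory chain were set beside these. Among nuclear subunits of complexes II to V, 36 of 38 had a positive log2 fold change, against 47.6% of all genes, with a median of 0.09. At an unadjusted p under 0.05, 10 were higher, against 3.95% of all genes, and none passed the adjusted threshold. The smallest p-values were those of Cox6a1 of complex IV (193 ± 17.1 CPM in MI, 167 ± 11.6 in Sham, log2 fold change 0.21, SE 0.06), Atp5e of the ATP synthase (log2 fold change 0.13, SE 0.04) and Uqcrq of complex III (log2 fold change 0.15, SE 0.05), each with an adjusted p of 0.597. Their mean deviation per library resembled that of the complex I subunits in size, at 0.12, 0.13 and 0.07 in MI 1, 3 and 4 and -0.18 in Sham 6.

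Complex I subunits encoded by mitochondrial DNA had a positive log2 fold change in 1 of 6 genes tested, with a median of -0.02. The 3 with the smallest p were mt-Nd3, at 0.696 ± 0.136 CPM in MI and 0.577 ± 0.193 in Sham, mt-Nd5, at 4175 ± 414 and 4382 ± 512 CPM, and mt-Nd2, at 4613 ± 393 and 4719 ± 551 CPM. Their log2 fold changes were 0.30, -0.07 and -0.03, with adjusted p of 0.814, 0.897 and 0.956. Assembly factors without an Nduf name had a positive value in 6 of 11 genes, with a median of 0.01 and none with an unadjusted p under 0.05. Acad9, Tmem126b and Ecsit, the partners of Ndufaf1, had log2 fold changes of 0.09, 0.08 and 0.11 with adjusted p of 0.690, 0.699 and 0.731.

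Of 12 regulators of respiratory gene transcription, 7 had a positive value, with a median of 0.01. Esrra, the estrogen-related receptor alpha, had 46.2 ± 2.18 CPM in MI and 39.8 ± 4.20 in Sham (log2 fold change 0.21, SE 0.07, unadjusted p = 0.00624, adjusted p = 0.597). Nrf1 had a log2 fold change of 0.09 (SE 0.05, adjusted p = 0.722) and Yy1 one of -0.08 (SE 0.06, adjusted p = 0.807).

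Several other measures differed along with these genes, and their part in the result was not tested. All 9 oligodendrocyte markers had a positive log2 fold change with an unadjusted p under 0.05 and none with an adjusted p under it, and their summed level ran from 5063 to 6402 CPM in MI and from 2747 to 5588 in Sham. Where Y-linked counts prevailed, the sums were 5781 to 6402 CPM in MI and 2747 to 3433 in Sham. Where Xist prevailed they were 5063 to 6219 and 4742 to 5588 CPM. The CA1 pyramidal neuron markers had a positive log2 fold change in 6 of 7 genes, with a median of 0.12, which was 0.70 in the set with Y-linked counts and -0.04 in the set with Xist. Their sums ran from 1157 to 1519 CPM in MI and from 696 to 1822 in Sham. Of 6 interneuron markers, 4 were positive and 3 of them had an unadjusted p under 0.05, with sums from 865 to 930 CPM in MI and from 683 to 955 in Sham, a mean 6.91% higher in MI. The summed meningeal fibroblast markers, negative in 7 of 7 genes, ran from 101 to 195 CPM in MI and from 73.5 to 370 in Sham, and their median log2 fold change was -1.82 in the set with Y-linked counts and 0.21 in the set with Xist. All 5 endothelial markers were positive, 1 with an unadjusted p under 0.05, and their mean sum was 10.6% higher in MI. All 6 dentate granule cell markers were negative, with a mean sum differing by -29.5%, Sham 6 having the highest sum. Mean sums of astrocyte and microglia markers differed by -0.54% and 1.91%. Of the choroid plexus markers, Folr1 and Kcnj13 were at 0 in at least 1 library.

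The fold change over all genes varied with transcript length and with GC content. Of the 46 complex I genes, 36 fell in the shortest of 5 equal groups of all genes tested, up to 1600 bases, where the median log2 fold change of all genes was 0.03 and 59.8% were positive. In the longest group the median of all genes was -0.04. By GC content, the median of all genes was -0.05 in the lowest of 5 equal groups, with 31.3% positive. It was 0.03 in the highest, with 63.9% positive. From lowest to highest these GC groups held 6, 10, 8, 14 and 8 of the complex I genes. With the length trend of each library removed, the median over subunits was 0.10 and 10 genes had an unadjusted p under 0.05. With the GC trend removed instead, the median was 0.11 and 15 genes were under it. The share of all genes at that p was not computed for either fit. The median biological coefficient of variation of the complex I genes was 8.0% against 11.3% for all genes, and 41 of the 46 lay below the latter. All genes were not matched to the 46 for level in that comparison. Standard errors of the log2 fold changes of the complex I genes ran from 0.04 to 0.13.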

How the data were processed

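PolyA RNA of hippocampal CA1 was sequenced as single-end 50-base reads with a TruSeq v2 kit, per the labels' protocols, in 6 MI and 6 Sham libraries. The deposited counts are whole-number read counts per Ensembl gene, and the submitters' processing notes name FastQC 0.11.5, STAR 2.5.2b, featureCounts, Subread 1.5.1 and the mm10 build, while annotation release and strand use are not given there. The authors also deposited tables of higher and lower genes with log2 fold changes and adjusted p-values, which were used only as lists and quoted values.

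Counts were fitted over the whole table in edgeR 4.0.16 (R 4.3.3) with TMM scaling, filterByExpr, robust quasi-likelihood dispersion and a two-sided test, with Benjamini-Hochberg adjustment over 16829 genes and a threshold of 0.05. Log2 CPM used a prior count of 2. DESeq2 1.42.0, limma 3.58.1 and sva 3.50.0 served as alternatives. The scripts were tested on simulated data. Transcript lengths and coordinates came from GENCODE on mm10 and promoter sequences from RefSeq on GRCm38.p6. No pair of libraries within a group agreed within counting noise (chi-square per degree of freedom from 6.22 to 78.2 over 30 pairs).

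The members and gene lists were chosen with earlier results of these data known. Genes described by library were the 3 of each class with the smallest unadjusted p, with Ndufa4 and Ndufa4l2. Genes named with fewer values had a negative fold change, were in the authors' tables, were highest or lowest per kilobase in their class, or had the 3 smallest p-values of another list. The membrane arm list matched 20 of 21 entries, and Ndufb1 was not analysed here. One of the 46 genes enters the counts and medians but is not reported here individually or drawn in the plots of single genes.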

Additional observations from a re-analysis of the deposited data

Results flagged for a closer look

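Among 32 groups of 6 libraries checked (the 14 genes described by library and the subunit and assembly factor means, in MI and in Sham), 4 had a library far from the others, all 4 being Sham 6 as the lowest Sham library. For a single group, chance gives such a gap in about 1 in 20. The 32 groups are not separate draws, since all come from the same 12 libraries. The subunit and assembly factor means also include Ndufv2 and Ndufaf2, so the 4 were not weighed against that rate. The gap to the next library, as a share of the group's whole range, was 0.689 for Ndufv2, 0.958 for Ndufaf2, 0.642 for the mean of the subunits and 0.868 for the mean of the assembly factors. On the log2 CPM scale these gaps were 0.25, 0.84, 0.13 and 0.20. The same library had the highest summed dentate granule cell markers, at 694 CPM, and their part in these gaps was not tested.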

How the results depend on the processing

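The number of complex I genes with a positive log2 fold change ranged from 40 to 44 over the 27 alternatives, the subunit median from 0.07 to 0.15 and the assembly factor median from 0.02 to 0.09. Of 377 values of the 14 genes described by library, 372 kept their direction and their side of the threshold. Genes called over the whole table numbered 10 higher and 6 lower with DESeq2 and 101 and 110 in the set with Y-linked counts, where 1 complex I gene, Ndufa7, was called (log2 fold change 0.31). Complex I genes with an unadjusted p under 0.05, 16 in the report, numbered 1 in the libraries with Xist alone, 8 with Sham 1 and Sham 6 both left out, and 10 with limma-voom sample weights or with the length trend removed. With 1 library left out they ranged from 9 to 18, being 10 without MI 1, 9 without MI 3, 10 without MI 4 and 10 without Sham 6. Leaving out 1 library moved the subunit median between 0.08 and 0.14 and the assembly factor median between 0.03 and 0.09, both lowest without Sham 6. Ndufaf6 had a log2 fold change of -0.0072 in the libraries with Y-linked counts. Ndufa4l2 had one of -0.038 there, -0.0014 with the GC trend removed and -0.018 without MI 6, within a range from -0.018 to 0.10 over the libraries left out in turn. A filter asking for 50 counts or more in 6 libraries left it untested. The cause of these changes was not tested, and the subsets also hold fewer libraries.

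The replicate numbers of the titles were shared by both groups, and the labels do not say whether they pair the libraries. Deviations of same-numbered libraries correlated at 0.526, -0.474, 0.325, -0.49, -0.099 and 0.31, and 3 of the 6 MI libraries correlated best with their own number. Such correlations cannot show whether libraries shared a surgery or processing day. With the replicate block, 17 complex I genes had an unadjusted p under 0.05 and 0 were called.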

Other observations

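In several libraries the mitochondrially encoded complex I transcripts varied otherwise than the nuclear subunits. Their mean deviation from the gene mean was -0.05, -0.08 and -0.09 log2 CPM in MI 1, 3 and 4, where the nuclear subunits were at 0.12, 0.14 and 0.11. In Sham 6 they were at 0.19, where the nuclear subunits were at -0.19. Sham 2 had the lowest mitochondrially encoded value, -0.23, with the nuclear subunits at 0.01, and MI 2 and MI 5 had 0.17 and 0.15 with the nuclear subunits at -0.02 and -0.01. Sham 1 and Sham 5 had 0.02 and 0.06, with the nuclear subunits at -0.06 in both. The signs were the same in Sham 3, Sham 4 and MI 6, at -0.12, 0.01 and -0.03 with the nuclear subunits at -0.04, 0.01 and -0.01. The mitochondrially encoded mean weights mt-Nd3, which had under 1 CPM, like the other 5 genes.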
